A study of Mus musculus with 22 samples.

Results

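The 9 genes followed here across the mouse aorta are typical of sympathetic neurons: Th, Dbh, Phox2a, Stmn2, Stmn4, Snap25, Npy, Celsr3 and Uchl1. They are 9 of 18193 genes with a probe set annotated to a single symbol. They have 13 such probe sets, and for each gene the one with the highest mean over all arrays was read. The genes were chosen by their higher intensity in suprarenal than in infrarenal pools, so the values of that comparison are given as a description, without a test. The study measured RNA on 22 Affymetrix arrays, 8 of aortic tissue and 14 of cultured aortic smooth muscle cells, to learn what tenascin C (TNC, a matrix glycoprotein made by loaded and injured arteries) does in the aortic wall. Every mouse was a C57BL/6 male, either wild type (WT) or with the Tnc gene knocked out (KO). The tissue reached 10 mm upward from the right renal artery (suprarenal) or 10 mm downward from the left one (infrarenal). Mice were left untreated, or were given CaCl2 (0.5 M) around the infrarenal aorta together with angiotensin II (1 µg/min/kg for 1 week), a combination called CaAngII here. The CaCl2 was laid on the infrarenal aorta alone, while the angiotensin was infused, so the suprarenal tissue of CaAngII mice had no CaCl2 of its own. One array holds the pooled RNA of 1 combination of genotype, segment and treatment, from 5 untreated or 8 CaAngII mice, so no single animal can be seen and 1 pool stands for each of the 8 combinations. The cells were grown from the suprarenal aorta of KO mice and had received nothing (3 arrays), the cytokine TNF (tumour necrosis factor alpha) at 10 ng/mL (3 arrays), TNC at 10 µg/mL (4 arrays) or both (4 arrays), and the series' design text calls their cultures independent.

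Postganglionic sympathetic neurons have their cell bodies in ganglia, several of which lie along the abdominal aorta, and send axons through the outer coat of arteries to the smooth muscle. They turn tyrosine into noradrenaline by the successive action of tyrosine hydroxylase (Th), aromatic amino acid decarboxylase (Ddc) and dopamine beta-hydroxylase (Dbh), pack it into vesicles, release it through the SNARE machinery that Snap25 belongs to, and take it back up through the transporter Slc6a2. Most of the sympathetic neurons that supply vessels also release neuropeptide Y (Npy). Phox2a is a homeodomain transcription factor of the noradrenergic fate, the stathmins Stmn2 and Stmn4 bind tubulin in growing neurites, Celsr3 is an atypical cadherin that guides axons, and Uchl1 is a ubiquitin hydrolase so abundant in neurons that it serves as their marker. Most of the messenger RNA of such neurons lies in the cell bodies rather than in the axons.

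Start site sequences were at hand for 6 of the 9 genes, Th, Dbh, Phox2a, Npy, Celsr3 and Uchl1, and not for Stmn2, Stmn4 and Snap25. Each RefSeq window (mouse build GRCm38.p6) runs from 250 bases before the annotated start of the gene to 50 bases after it. Those of both noradrenaline enzymes and of Celsr3 are shown, 5′ to 3′ along the gene, because all 3 genes were higher suprarenally in every pair and their windows carry different motifs. Capitals mark TGACGTCA (the cAMP response element), ATTA on either strand (the core that homeodomain factors such as Phox2a bind) and a 17-base form of RE1, the element bound by the neuronal repressor REST. The RE1 form was written down after the Celsr3 window had been read.
Th, chr7:142899946-142900245, minus strand: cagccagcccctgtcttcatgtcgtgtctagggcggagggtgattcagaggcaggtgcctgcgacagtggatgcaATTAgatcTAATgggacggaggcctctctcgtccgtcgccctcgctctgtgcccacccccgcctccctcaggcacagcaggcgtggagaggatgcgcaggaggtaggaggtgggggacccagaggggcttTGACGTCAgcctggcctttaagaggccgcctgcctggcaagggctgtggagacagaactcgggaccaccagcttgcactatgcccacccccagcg
Dbh, chr2:27165257-27165556, plus strand: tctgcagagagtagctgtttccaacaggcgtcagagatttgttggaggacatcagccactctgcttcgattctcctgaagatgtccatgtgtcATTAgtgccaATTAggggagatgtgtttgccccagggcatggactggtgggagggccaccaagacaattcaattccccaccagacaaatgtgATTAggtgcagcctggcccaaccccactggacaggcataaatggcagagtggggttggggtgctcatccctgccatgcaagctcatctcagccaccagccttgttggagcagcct
Celsr3, chr9:108825795-108826094, plus strand: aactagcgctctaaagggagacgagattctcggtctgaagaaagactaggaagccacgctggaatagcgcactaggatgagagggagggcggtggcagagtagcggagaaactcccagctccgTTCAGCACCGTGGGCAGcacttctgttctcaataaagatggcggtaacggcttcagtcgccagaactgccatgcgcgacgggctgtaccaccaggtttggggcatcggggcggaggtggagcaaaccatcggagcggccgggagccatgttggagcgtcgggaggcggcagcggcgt
The Th window holds TGACGTCA with its first base 45 bases before the start, and none of the other 5 windows holds it. Among 32851 mouse windows of this length, 1.79% carry that motif. ATTA or its complement occurs at 3 places in the Dbh window, at 2 in that of Th and at 1 in that of Uchl1, and 58.0% of all windows have it at least once, so it is common. The RE1 form lies 127 bases before the start of Celsr3 and is found in 7 of all windows (0.0213%). A match describes the letters of a window and shows neither binding nor a cause.

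Across the tissue the Tnc probe set followed the labels. It read 1805 and 2327 in the suprarenal WT pools and 257 and 489 in the suprarenal KO pools (untreated and CaAngII), and 2453 and 2699 against 336 and 441 in the infrarenal ones. Smooth muscle genes were bright in all 8 pools: Acta2 lay between 22726 and 32462 and Myh11 between 8638 and 18978. Median intensity was 119 to 134 in the pools and 51.0 to 64.6 in the cells, and every array had a mean of 500.0 once its dimmest and brightest probe sets were trimmed, so the values had been scaled to a common mean. A value is therefore relative to all other RNA of its pool. In such bulk tissue fewer cells of a type and less RNA per cell cannot be told apart.

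Th and Dbh, the enzymes that define noradrenergic cells, were bright above the kidneys and dimmer below them. Values are given throughout in the order WT untreated, KO untreated, WT CaAngII and KO CaAngII. Th had an intensity of 6763, 9047, 7319.6 and 6514 in the suprarenal pools and of 1175, 958, 599 and 729.99 in the infrarenal ones. Its suprarenal value was 5.76 to 12.2 times its infrarenal partner, and the groups of 4 pools lay far apart. For Dbh the suprarenal intensities were 7428, 9272, 8302 and 7291, against 1374, 1673, 919.6 and 912 infrarenally. That makes 5.41- to 9.03-fold over the 4 pairs, again with no overlap. Both other Dbh probe sets were higher suprarenally in all 4 pairs too, with smallest log2 ratios of 2.62 and 2.11.

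The rest of the noradrenaline pathway went with them. Of 12 listed genes for catecholamine synthesis, storage, uptake and breakdown that the array measures, 11 reached the middle of the array's range, its 50th percentile, in 1 pool or more, and only such genes are counted from here on. All 11 were higher in the suprarenal member of every pair, and 7 were at least 2-fold higher in all 4 pairs. Over all 12684 genes counted, 511 (4.03%) met that 2-fold rule, and 55 (0.434%) met it in the other direction. This filter lets in genes that are bright in a single segment, so shares over counted genes lean towards genes that differ. Ddc, the enzyme between Th and Dbh, lay at 10713 to 14704 suprarenally and 1003 to 3240 infrarenally. Slc18a2, which loads amines into vesicles, had intensities of 6856 to 9369 against 552 to 1397. The noradrenaline transporter Slc6a2 stood at 15042 to 18472 against 2406 to 5617. Slc18a1, the vesicular amine transporter best known from chromaffin cells, and Cyb561, the electron carrier that serves Dbh inside granules, met the 2-fold rule too, as did Maoa, which breaks noradrenaline down, and Gch1, which makes the cofactor of Th. The dopamine transporter Slc6a3 was dim in all 8 pools (33.8 to 91.6). Pnmt, which turns noradrenaline into adrenaline in the adrenal medulla, stayed between 151 and 234 everywhere, with log2 segment ratios of -0.14 to 0.21.

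**Figure D1:**
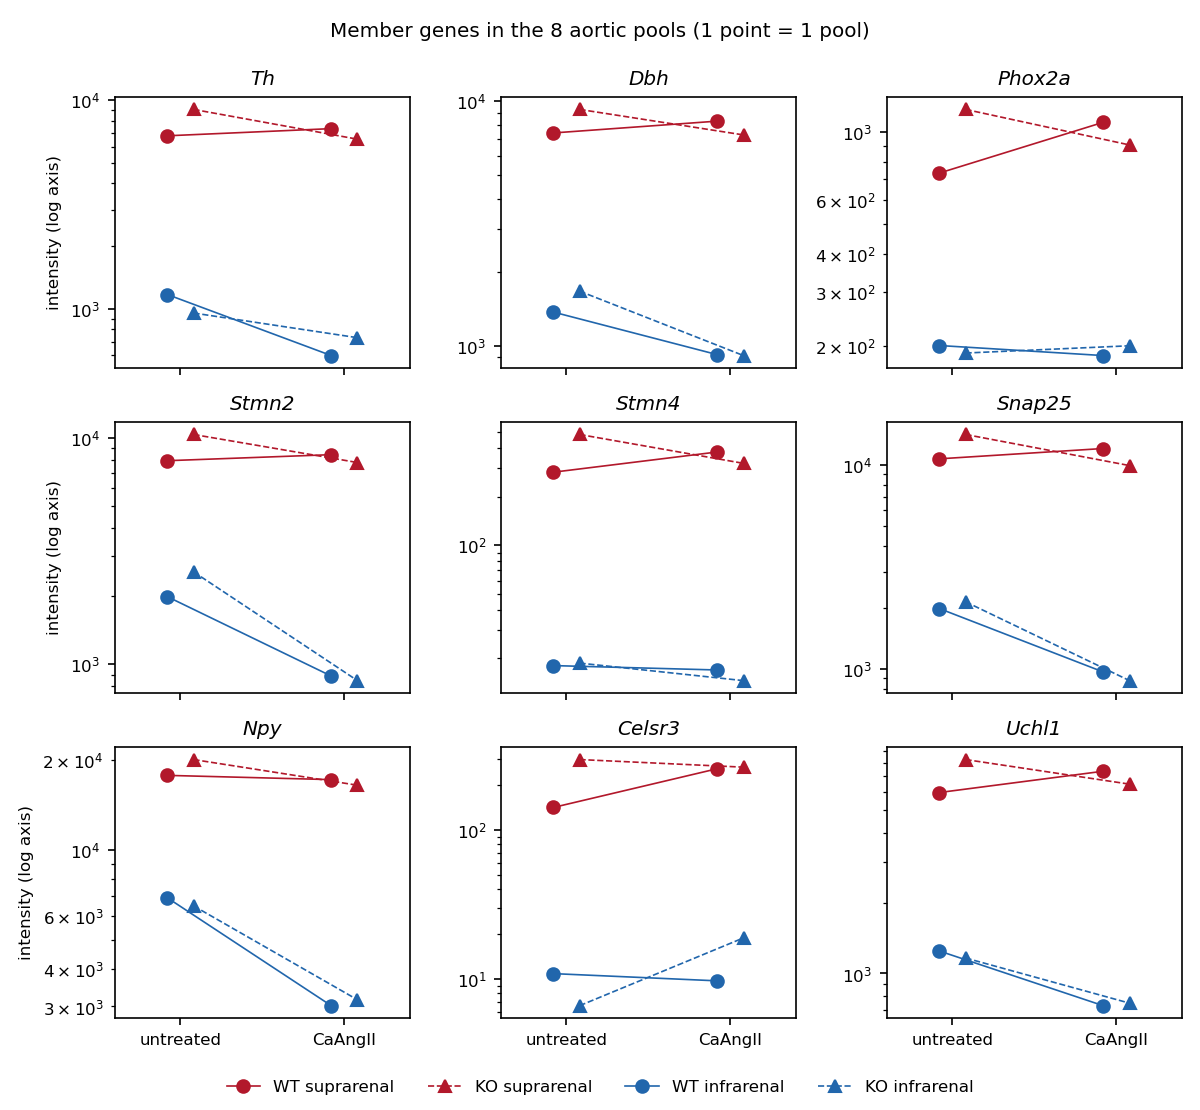
Intensity (log axis) of the 9 genes in the 8 aortic pools, untreated on the left and CaAngII on the right of each panel, with 1 point per pool; red marks suprarenal and blue infrarenal tissue, circles with full lines WT and triangles with dashed lines KO. In every panel the 4 red points lie above the 4 blue ones, and the KO untreated pool is the highest of the red points.

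Phox2a, the fate gene of the set, was separated as cleanly. Its intensity was 734, 1184, 1075 and 906 in suprarenal and 201, 189.7, 186 and 200.3 in infrarenal tissue. The infrarenal pools hardly differed from one another (1.08-fold between highest and lowest), and the suprarenal ones were 3.66 to 6.24 times as bright as their partners. Of 8 counted transcription factors of autonomic neurons, 4 met the 2-fold rule: Tfap2b, Hand2, Isl1 and Hmx1. Hand2, which with Phox2a holds noradrenergic identity, measured 3312 to 4926 suprarenally and 358 to 615 infrarenally. Isl1 gave 1521 to 2765 against 143 to 404. The cultured KO smooth muscle cells expressed Isl1 too, with mean intensities of 2467 unstimulated and 903 with both factors. Its level in tissue can therefore not be read as that of neurons alone. Among receptors for target-derived survival factors, the neurotrophin receptor Ngfr (2647 to 4215 against 520 to 673) and Ret, the signalling receptor of GDNF family ligands (1936 to 3047 against 353 to 769), met the rule and the other 4 counted receptors did not. Of 4 counted genes for factors that targets release to guide or sustain neurons (Bdnf, Nrtn, Edn3 and Sema3a), 0 met it.

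Npy, the transmitter peptide, had the smallest step of the set and was bright in both segments. It read 17733, 20028, 17163 and 16440.0 suprarenally and 6919.5, 6502, 3017 and 3158 infrarenally, which is 2.56- to 5.69-fold. Even so the lowest suprarenal pool was 2.38 times the highest infrarenal one. Of 12 counted genes for granule proteins and peptides, 8 were at least 2-fold higher in all 4 suprarenal pools. These were the granins and their relatives Chga, Chgb, Scg2, Scg3 and Scg5, the processing enzyme Pcsk1 with its inhibitor Pcsk1n, and the peptide galanin (Gal). Scg2 had values of 3770 to 5702 suprarenally and of 249 to 778 infrarenally. Penk, the enkephalin precursor that chromaffin cells are rich in, was lower suprarenally in all 4 pairs (log2 -0.50 to -0.21). Vip was the 1 gene of the list at least 2-fold lower in every pair, at 4.34 to 49.98 against 48.1 to 151. Its suprarenal values lie near or below the 30th percentile of the pools (40.7 to 47.3), so the size of that step cannot be read.

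Among the receptors of the target tissue, Npy1r, through which Npy constricts vessels, ran the other way without treatment. It stood at 567.5 and 431 in the untreated suprarenal pools of WT and KO and at 1110 and 1146 in the infrarenal ones, but under CaAngII at 387 and 498 against 270.4 and 298. P2rx1, the smooth muscle receptor for the ATP that sympathetic endings release, was lower suprarenally in every pair (log2 -2.17 to -0.19).

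Stmn2 and Stmn4, which act on microtubules, and the hydrolase Uchl1 were all higher suprarenally. Stmn2 stood at 7923, 10345, 8425 and 7777 suprarenally and at 1987, 2558, 886 and 846 infrarenally, 3.99- to 9.51-fold. Uchl1 gave 5965, 8261, 7362 and 6479.9 against 1248, 1165, 727 and 746, 4.78- to 10.1-fold. Stmn4 was a dim gene with a steep step: its suprarenal intensities of 284, 485, 378 and 322 faced 18.1, 18.7, 17.0 and 14.6, or 15.7- to 25.9-fold. Those infrarenal values lie below the 30th percentile of every pool (40.7 to 47.3), where an array cannot tell a low level from none, so the size of the ratio depends on how the background was removed. With 32 added to each value before the logarithm, the log2 ratio of Stmn4 fell from between 3.97 and 4.70 to between 2.66 and 3.35. Of 15 counted genes for the neuronal cytoskeleton and growth cone, 13 met the 2-fold rule, among them the neurofilament Nefm (3381 to 5699 against 241 to 579), peripherin (Prph, 6462 to 9243 against 600.2 to 1328) and the neuronal tubulin Tubb3 (3594 to 4997 against 417 to 731). Dpysl3, which other tissues express too, did not (log2 -0.24 to 0.40).

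Snap25, the release protein of the set, went from infrarenal intensities of 1980.6, 2138, 968 and 878 to suprarenal ones of 10722, 14110.4, 12046 and 9936. That is 5.41- to 12.4-fold. A second, far dimmer Snap25 probe set went the same way in all 4 pairs, by log2 1.18 to 2.00. The synaptic list matched it, with 13 of 15 counted genes past the 2-fold rule. Rab3c, a vesicle GTPase, had the largest smallest ratio of that list: 3469 to 5720.3 suprarenally and 247 to 453 infrarenally. Syt1, the calcium sensor of fast release, measured 6967 to 9699.7 against 629 to 1786.

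Celsr3 behaved as Stmn4 did. It was dim suprarenally, with 141, 297, 258 and 264, and near background infrarenally, with 10.8, 6.59, 9.68 and 18.8. The fold of 13.1 to 45.03 carries the same limit: with 32 added its log2 ratio lay between 2.02 and 3.09 in place of 3.71 and 5.49. The genes it works with did not share its pattern, since 0 of 8 counted planar polarity genes met the 2-fold rule. Fzd3, its partner receptor in axon guidance, was higher suprarenally in each pair by log2 0.55 to 1.21. Of the ubiquitin hydrolases related to Uchl1, likewise, 0 of 2 counted met it.

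Taking the 9 together, the median log2 segment ratio was 2.43 in untreated WT, 2.72 in untreated KO, 3.34 in WT under CaAngII and 3.16 in KO under CaAngII, against -0.05 to 0.05 for the median of all counted genes. Every one had its lowest suprarenal pool above its highest infrarenal pool, which 15.6% of all counted genes also had. When genes were ranked by the smallest of their 4 ratios, the 7 genes above background infrarenally lay between 49th (Th) and 373rd (Npy) of 12684. No rank is given for Stmn4 and Celsr3, whose ratios rest on infrarenal values near background. Because the genes were chosen on this comparison, their medians, separation and ranks describe the choice and test nothing. Over 7 neuronal lists together 67 of 90 counted genes met the 2-fold rule upward and 1, the dim Vip, downward. Their median log2 ratios were 1.95, 2.23, 2.52 and 2.47 over the same pairs. The nicotinic receptor subunit Chrna3, through which ganglion cells receive their input, read 1649 to 2388 against 169 to 378.

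**Figure D2:**
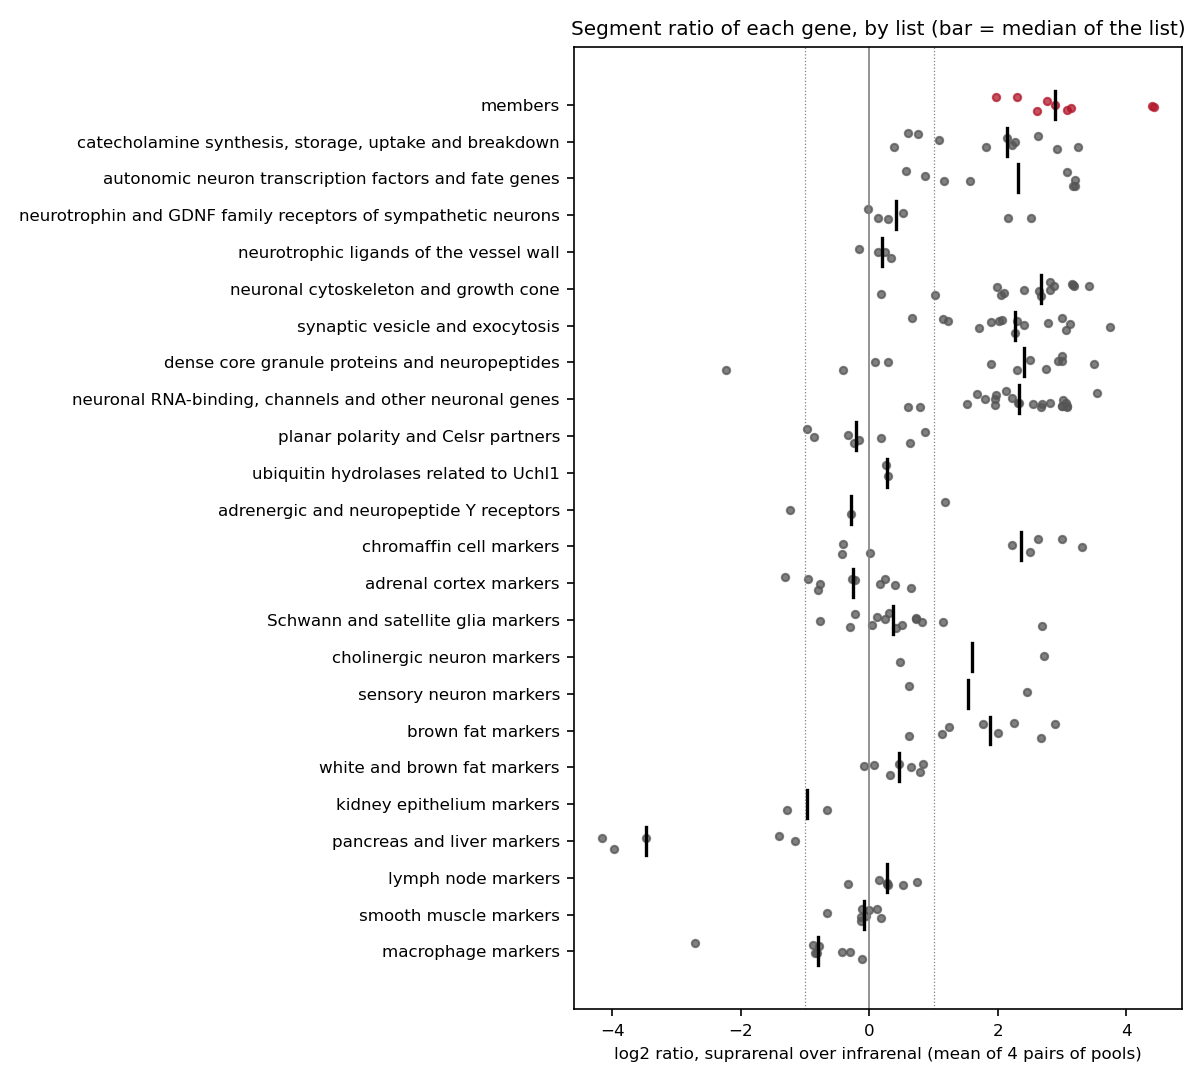
Mean log2 ratio of suprarenal over infrarenal intensity over the 4 pairs of pools for each counted gene, by list; 1 dot is 1 gene, red for the 9 genes, the black bar is the median of its list, and dotted lines mark a 2-fold difference. The medians of 6 of the 7 neuronal lists lie right of the 2-fold line and that of the neurotrophin and GDNF receptors left of it, and the medians of the smooth muscle and planar polarity lists lie near 0.

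Markers of other cells that the tissue could hold were read in the same pools. Of the cholinergic markers, Chat, Slc18a3 and Slc5a7 were dim in all 8 pools (1.41 to 77.8), and Ache, which sympathetic neurons also make, met the 2-fold rule. The sensory markers Calcb, Tac1, Scn10a and P2rx3 were dim as well, and Avil was the 1 of 2 counted sensory genes past the rule (1397 to 2038 against 273 to 417). Fabp7, found in satellite glia that wrap ganglion cells, had intensities of 4020.2 to 6890.5 suprarenally and of 615 to 1236 infrarenally, the only 1 of 14 counted glial genes to meet the rule. The glial list summed to 20650.1 to 30686 suprarenally and 18206 to 22959 infrarenally. Of the glial genes of nerve fibres, Mbp had log2 ratios of -0.98 to 0.55 and S100b of 0.15 to 0.61. Of 8 chromaffin cell markers 5 met the rule. Of these, Slc18a1, Cyb561, Chga and Chgb are on the neuronal lists too. Resp18, which is on none of them, had 1142 to 1803 against 84.1 to 220. Pnmt, Penk and Dlk1 did not meet the rule. Adrenal cortex genes met it for 0 of 10, summed to 6741 to 11341 suprarenally and 4562 to 13588 infrarenally, and followed single pools: Hsd3b1 was 1425 in the suprarenal CaAngII pool of WT and 2613 in the untreated infrarenal pool of KO, 182 in the infrarenal CaAngII pool of KO, and 5.24 to 11.4 in the other 5. Th read 7319.6 in that suprarenal pool and 6514 to 9047 in the 3 suprarenal pools with Hsd3b1 near background. Hsd3b1 is a gene of the adrenal cortex and does not report on the medulla. Brown fat genes were higher suprarenally in all 4 pairs for 8 of 8, with 3 of them past 2-fold throughout, and their summed intensity was 34366 to 56543 against 4178 to 27907. Lymph node genes summed to 3611 to 11578 against 1865 to 9163. Their median log2 segment ratio changed sign with treatment, at 2.27 in WT and 2.63 in KO untreated and -2.50 and -1.28 under CaAngII. The part of adrenal tissue, fat and lymph node in the ratios of the neuron genes was not tested.

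Genes were then compared with the set by the shape of their profile over the 8 pools, as the root mean square difference of centred log2 values. Nearest to the mean profile of Th and Dbh were Zcchc18 (0.090), the granin Chgb (0.092), the potassium channel Kcnd2, Elmod1, Napb, Bex2, Hand2, Pcsk1n, the somatostatin receptor Sstr2 and Scg5 (0.14). Uchl1 itself was nearer still, at 0.067, and Snap25 stood at 0.19. Farther off were Stmn2 at 0.31, Phox2a at 0.42, Npy at 0.52, Stmn4 at 0.76 and Celsr3 at 0.96. Nearest to the mean profile of the other 7 genes were Hand2 (0.097), Cadps, Kif5a, Zcchc18, Bex2, Kcnd2, Pirt, Tbx20, Chgb and Rtn1 (0.14). The likeness rests on 8 pools and mostly on the step between segments.

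Under CaAngII the set was dimmer infrarenally, where the CaCl2 had been applied, in both genotypes, and suprarenally the genotypes went opposite ways: 8 of the 9 genes were higher in WT and 9 of 9 lower in KO, none by 2-fold. In WT the median log2 ratio of CaAngII over untreated tissue was 0.17 suprarenally and -0.78 infrarenally, and in KO it was -0.39 and -0.64. All counted genes had suprarenal medians of 0.02 in WT and -0.04 in KO. Of all 12684 counted genes, 3412 were higher and 3684 lower suprarenally in both genotypes, so opposite directions were common. How many were higher in WT and lower in KO was not counted. Among the other probe sets, those of Snap25 (-0.31) and 1 of Dbh (-0.03) were lower in suprarenal WT tissue. The remaining Dbh set (0.30) and that of Stmn2 (0.31) were higher there. In KO the suprarenal ratios are taken against the untreated KO pool, the highest suprarenal pool for all 9 genes. Stmn4 and Celsr3 were below the 30th percentile in all 4 infrarenal pools, so their infrarenal directions cannot be read. Of the other 7 genes, 6 were lower in both genotypes, which 37.7% of counted genes were, with medians over the 7 of -0.97 in WT and -0.88 in KO, and Stmn2, Npy and Snap25 were lower by at least 2-fold in both (4.19% of counted genes). Stmn2 went from 1987 to 886 in WT and from 2558 to 846 in KO, Npy from 6919.5 to 3017 and from 6502 to 3158, and Snap25 from 1980.6 to 968 and from 2138 to 878. Phox2a took opposite directions in WT and KO. Suprarenally 1 of the 9, Npy, was lower in both genotypes (29% of counted genes were), and 0 were lower by 2-fold in both (1.04%).

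Over both segments at once, in a limma fit with segment, treatment and genotype as terms (4 residual degrees of freedom), CaAngII called 0 of the 9 genes, with the lowest adjusted p at 0.181 for Npy and 3 genes at an unadjusted p under 0.05. Only 1 of 14258 genes was called there (0.00701% of those tested, upward). A second limma fit gave CaAngII an effect of its own in each segment, with genotype as a term and 3 residual degrees of freedom. It was chosen after the pool values had been seen. In it the WT and KO pools act as replicates, 2 against 2, so its p-values measure the spread between these pools and not between mice. Stmn4 and Celsr3 passed the filter on low values of both fits (at least the 30th percentile in 4 pools) through their suprarenal pools alone.

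Infrarenally 5 of the 7 genes above background there fell at an adjusted p under 0.05. Npy had a log2 change of -1.12 (SE 0.12, adjusted p = 0.0055), Stmn2 of -1.38 (SE 0.18, adjusted p = 0.0082) and Snap25 of -1.16 (SE 0.19, adjusted p = 0.014). The change of Dbh was -0.73 (SE 0.17, adjusted p = 0.033), and that of Uchl1 was -0.71 (SE 0.19, adjusted p = 0.048). Th, at -0.68 (SE 0.21), missed the threshold with an adjusted p of 0.073, and Phox2a lay at -0.02 with an adjusted p of 0.97. For Stmn4 and Celsr3 the fit has nothing to read infrarenally. Of all genes tested 12% were called lower and 14.2% higher, so falls as such were common there. With 1 pool left out, genes called lower made up 2.55% to 10% of all, the smallest shares being 2.55% without the untreated KO pool and 2.66% without the CaAngII WT pool of that segment. The median change of the 7 was -0.73, beside 0.02 for all genes tested. Of 94 genes tested from the 7 neuronal lists 31 fell and 2 rose, with a median of -0.70. The former include Ddc at -1.32 (SE 0.25), Scg2 at -1.30 (SE 0.24), Syt1 at -1.19 (SE 0.21), Isl1 at -1.18 (SE 0.29) and Slc18a2 at -1.17 (SE 0.19). The 2 that rose, Thy1 and Gfra2, fall outside the rule for named genes and were picked once their values were known.

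Leaving out any 1 infrarenal pool left 1 or 2 of the 5 calls, 2 without the untreated or the CaAngII pool of WT and 1 without that of KO. The call of Npy stood in each of the 8 fits with a pool left out (adjusted p up to 0.0495), and those of Stmn2, Snap25, Dbh and Uchl1 did not. In such a fit the 1 pool left in its group is assumed to vary like the others. Other RNA changed in the same pools. In the same limma fit 6 of 8 brown fat markers, 6 of 7 general fat markers and 6 of 8 smooth muscle markers fell infrarenally. Of the macrophage markers 6 of 7 rose there, and of the lymph node markers 3 of 7. Without treatment or with it, macrophage markers summed to 17202 to 58057 and smooth muscle markers to 52427 to 94599.8 in the infrarenal pools. Ucp1, the uncoupling protein of brown fat, fell by 3.97 on the log2 scale (SE 0.17, adjusted p = 0.0030). Transcripts of pancreatic enzymes were bright in both infrarenal CaAngII pools, Ctrb1 at 14152 in WT and 2620.0 in KO, against 4.77 to 105 in the other 6. The part of these in the fall of the neuron genes was not tested. The glial gene Fabp7 fell with them (-0.96, SE 0.21, adjusted p = 0.029), as 1 of 2 that did among 16 tested glial genes.

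**Figure D3:**
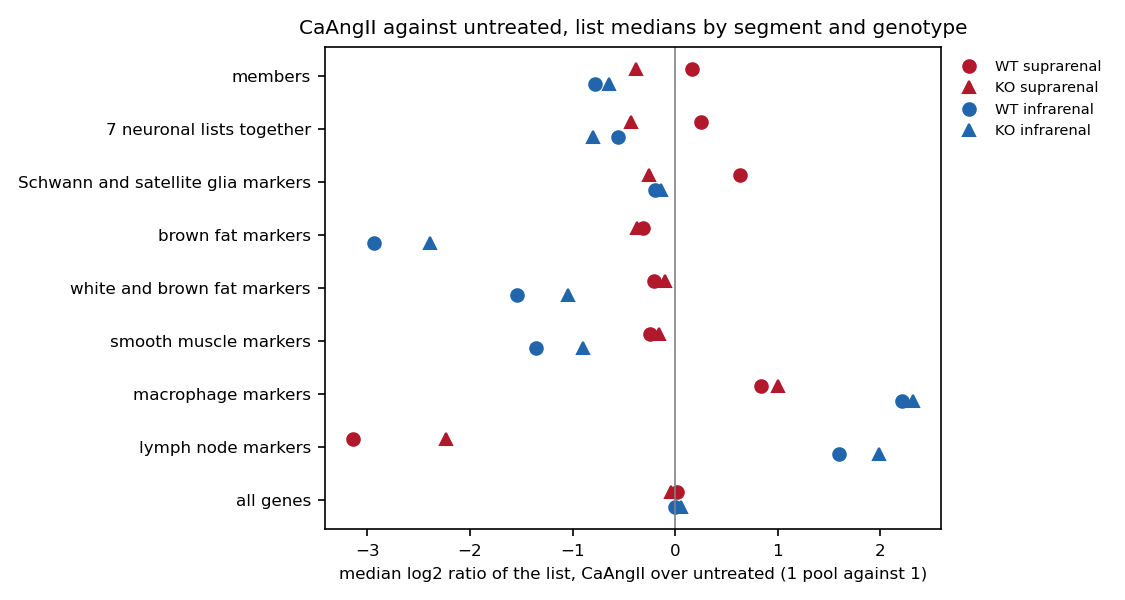
Median log2 ratio of CaAngII over untreated intensity, 1 pool against 1, for the 9 genes, the 7 neuronal lists, 6 other lists and all counted genes; red marks suprarenal and blue infrarenal tissue, circles WT and triangles KO. The infrarenal medians of the 9 genes are -0.78 and -0.64, those of brown fat markers -2.93 and -2.39, and those of macrophage markers 2.21 and 2.32.

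Suprarenally 0 of the 9 were called, and 0 had an unadjusted p under 0.05, while 0 of all 14258 genes were called and 1552 had an unadjusted p under 0.05. Changes ran from -0.18 (Th) to 0.35 (Celsr3). When the effects were set against each other, suprarenal minus infrarenal, only Npy passed, at 0.95 (SE 0.17, adjusted p = 0.041), with 2.67% of genes called in that direction and 4.55% in the other. Stmn2 (1.22, SE 0.25, adjusted p = 0.055) and Snap25 (0.99, SE 0.27, adjusted p = 0.099) missed the threshold. The call of Npy was lost without any 1 of the 8 pools, with adjusted p up to 0.15. A difference between segments was thus not established for the other genes.

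By genotype the set was marked in 1 place. Among the 4 suprarenal pools the untreated KO pool was the highest for all 9 genes, a count added after the values had been seen, and 29.3% of counted genes were highest there. The other Dbh and Stmn2 probe sets were highest in that pool too, but the second Snap25 set was highest in untreated WT (169, against 146 in KO). Untreated KO exceeded untreated WT suprarenally for 9 of 9, by a median log2 ratio of 0.42 (0.18 for Npy to 1.07 for Celsr3), where 52.2% of counted genes were higher. Celsr3 alone was at least 2-fold higher, as were 0.946% of counted genes. Under CaAngII 8 of 9 were lower in KO than in WT, with a median of -0.18 and a range of -0.28 to 0.03, where 43.9% of counted genes were higher in KO and 2.96% at least 2-fold higher. The neuronal lists had suprarenal medians of 0.50 untreated and -0.17 under CaAngII. Infrarenally the set's medians were -0.08 and 0.04. In both segments at once, KO was above WT untreated and below it under CaAngII for Dbh, Stmn2 and Snap25, as for 7.15% of counted genes. The other probe sets of these genes did not share that pattern. Infrarenally under CaAngII, KO was above WT for 1 other Dbh set (733 against 699) and that of Stmn2 (893 against 823). Without treatment, KO was below WT for the remaining Dbh set infrarenally (238 against 252) and for that of Snap25 suprarenally. In the limma fit over all 8 pools the KO effect passed for 0 of 9 genes, each with an adjusted p of 0.9999, 0 of them at an unadjusted p under 0.05, and their changes ran from 0.02 (Snap25, SE 0.24) to 0.34 (Celsr3, SE 0.32). For Celsr3 and Stmn4 these changes also average infrarenal values near background, so their size cannot be read. Across all genes that fit called 1, Tnc itself (0.00701% of genes, downward). Each of these genotype ratios sets 1 pool against 1 and carries no error of its own. Fabp7 was higher in the untreated KO pool as well, at 5863 against 4020.2 in WT.

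In the cultured smooth muscle cells 8 of the 9 genes never exceeded an intensity of 202, and Uchl1 was well above it. Of the smooth muscle markers Acta2 was at 15304 to 23322 and Tagln at 7351 to 14268.0 in these 14 arrays, whereas Myh11, of the contractile state, was at 27.9 to 407 and Myocd at 1.53 to 71.7. Over the 14 arrays Th lay between 3.72 and 68.7, Npy between 6.39 and 73.9, Stmn2 between 3.92 and 29.7, Phox2a between 7.94 and 83.2 and Dbh between 80.6 and 202, above the arrays' medians. Stmn4, Snap25 and Celsr3 never exceeded 20.9 and did not pass the filter on low values (at least the 30th percentile, 18.1 to 23.1, in 3 arrays), so 6 of the 9 were tested. Uchl1 gave 412, 440.1 and 472 in unstimulated cells, 896, 949 and 1062 with TNF, 598, 664, 667 and 689 with TNC, and 1252, 1474, 1498 and 1499 with both. The 4 groups did not overlap. Cells with both factors read above the infrarenal KO pools (1165 and 746) and below the suprarenal ones (8261 and 6480). Array medians were 51.0 to 64.6 in the cells and 119 to 134 in the pools, so such levels compare only roughly.

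**Figure D4:**
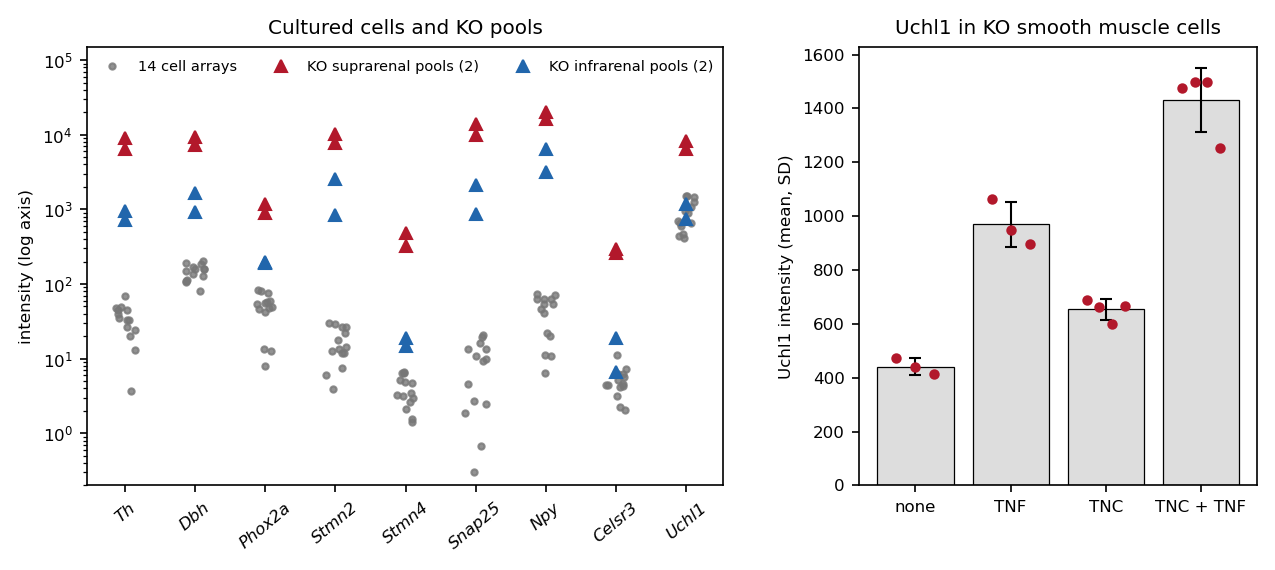
Left, intensity (log axis) of the 9 genes in the 14 arrays of KO smooth muscle cells (grey) beside the 2 suprarenal (red) and 2 infrarenal (blue) KO pools; right, Uchl1 in the 4 groups of cells, with 1 red point per array, bars for means and lines for the SD (3, 3, 4 and 4 arrays). The cell arrays reach the infrarenal pools for Uchl1 and, near background, for Celsr3, and the mean of Uchl1 goes from 441 without a factor to 1431 with both.

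The mean of Uchl1 was 441 ± 30.0 (SD, n = 3) without a factor, 969 ± 84.7 (SD, n = 3) with TNF, 654 ± 39.4 (SD, n = 4) with TNC and 1431 ± 119.8 (SD, n = 4) with both. TNF raised it by 1.13 on the log2 scale without TNC (SE 0.09, limma adjusted p = 2.37e-06) and by 1.13 with TNC (SE 0.08, adjusted p = 2.56e-06). In those comparisons 14.3% and 9.60% of all 15534 genes tested rose. TNC raised it by 0.57 without TNF (SE 0.09, adjusted p = 0.00045) and by 0.56 with it (SE 0.09, adjusted p = 0.00065), where 16.1% and 16.3% of genes rose. The difference between the TNF effects with and without TNC was -0.01 (SE 0.12, adjusted p = 0.98), and it passed for 0 of the 6 genes, 1 of them at an unadjusted p under 0.05, while 9.81% of all genes were called higher and 9.01% lower by limma. All 4 rises of Uchl1 stayed past the threshold in each fit with 1 array left out.

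Further calls were made at low intensities. Th went from 3.72 to 26.6 without a factor to 33.0 to 49.7 with TNF (limma adjusted p = 0.030), but 2 of the 3 unstimulated values lie below the 30th percentile of their arrays, so the size of the change cannot be read. That call was lost without either of 2 unstimulated arrays or either of 2 TNF arrays, those of replicates 1 and 2. Phox2a was lower with TNC than without (7.94 to 53.6 against 55.5 to 83.2; adjusted p = 0.0080), where 15.7% of genes fell, but 3 of the 4 TNC values lie below that percentile, which again leaves no size to read. It was higher with both factors than with the same TNC arrays (adjusted p = 0.034), in groups that overlap, and that call was lost in 7 of the 14 fits with 1 array left out. Dbh, Npy and Stmn2 passed in none of the 5 comparisons. TNF called none of the 6 genes lower, where 20.3% of genes fell without TNC and 12.5% with it, and TNC with TNF called none lower, where 11.9% fell.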

How the data were processed

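RNA of 8 aortic pools and 14 arrays of cultured cells was measured on 1 Affymetrix design. The deposited values are linear intensities, 1 per probe set, which the authors made with Affymetrix Expression Console per the submitters' processing notes; the sources used here give neither its version nor its algorithm or scaling. Over the middle 96% of its probe sets every array has a mean of 500.0. Of 45101 probe sets, 64 were controls, 932 carried several symbols and 9160 had no name here; 34945 gave 18193 genes, each read from its probe set with the highest mean.

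Values were used on the log2 scale as deposited. limma 3.58.1 (R 4.3.3) was run with Benjamini-Hochberg adjustment over all genes tested. The cells were fitted as 4 groups with 5 contrasts (15534 genes, 10 residual degrees of freedom), and the pools with segment, treatment and genotype as terms (14258 genes, 4 residual degrees of freedom). The fit of CaAngII within each segment was added after the values had been seen. Filters asked for the 30th percentile of the array in at least 3 cell arrays or 4 pools. Ratios between single pools carry no test. Python 3.11.15 with pandas 2.3.3 and numpy 2.4.6 did the rest.

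The 9 genes and all gene lists were chosen with earlier results of these data known. Named genes are the 9, up to 5 genes a list with the largest smallest segment ratio and any defining marker a statement needs, the 10 nearest profiles on each of 2 measures, and Tnc. TNF was given for 24 h per the series' design text, while the treatment protocols of the samples name an hour that differs from array to array, by 1 h from one to the next. Titles of the TNC arrays name TNC or TNF, and their treatment label, TNC, was followed. The number of arrays limits the precision. Alternatives covered normalization, pseudocount, filter, probe set rule, variance trend, a replicate block and each array left out.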

Additional observations from a re-analysis of the deposited data

Results flagged for a closer look

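In the groups of 4 cell arrays, 5 of 18 sets of values (9 genes in each group) had an end value whose gap to its neighbour, as a share of the group's range on the log2 scale, passed the critical value of 0.829. In cells with TNC these were Dbh (share 0.901, highest array 186 beside 159) and Snap25 (0.884, lowest 2.48 beside 16.3). In cells with both factors they were Snap25 (0.922, lowest 0.302 beside 10.0), Npy (0.830, lowest 11.2 beside 53.7) and Uchl1 (0.909, lowest 1252 beside 1474). At this critical value chance alone gives about 0.9 of 18 sets.

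The effect of CaAngII on Npy differed between segments by 0.95 on the log2 scale (limma adjusted p = 0.041), suprarenal minus infrarenal. That fit was chosen after the values had been seen, and it called 2.67% of all genes in this direction and 4.55% in the other. The call of Npy was lost with median centring, with the mean of all probe sets and with no filter. For 4 genes the KO pool was above the WT pool in both segments without treatment and below it in both under CaAngII, as for 7.15% of all counted genes; this difference was not tested, and for Stmn4 the infrarenal values are near background, so its direction there cannot be read. The mean KO ratio over both segments went from 0.30 to -0.10 for Dbh (difference -0.40) and from 0.37 to -0.09 for Stmn2 (difference -0.47). It went from 0.41 to -0.23 for Stmn4 (difference -0.64) and from 0.25 to -0.21 for Snap25 (difference -0.46). The other probe sets of Dbh, Stmn2 and Snap25 did not show the pattern in both segments.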

How the results depend on the processing

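Of 233 alternatives to 22 values that answer a comparison, 195 stayed close to the main value. For a median ratio, close meant a move of less than log2 0.238, a spread taken from the cell arrays. For a number of genes called, it meant staying within a set factor of the main number. Among the values rerun, no ratio of at least 2-fold and no called change reversed its sign. Smaller ratios were not checked for a change of sign. The segment ratio of each of the 9 genes stayed above 2-fold in every pair under quantile normalization, median centring, an added 32 and the mean of all probe sets (log2 1.29 to 5.63). Under CaAngII 5 genes fell infrarenally; 3 did with the mean of all probe sets or with no filter, 1 to 5 with a pool left out. The call of Dbh went (adjusted p = 0.068 and 0.069), as did that of Uchl1 (0.068 and 0.093, and 0.081 with median centring). The difference between segments, 1 gene, became 0 with median centring, the mean of probe sets, no filter or any pool left out (0 to 0), 2 with an added 32 or a filter at the 50th percentile, and 3 with a variance trend. In cells TNF without TNC called 1 gene in place of 2 with the 50th percentile filter and with a replicate block (Th adjusted p = 0.055), and 1 to 2 with an array left out. TNC without TNF called 4 with median centring and 2 to 3 with an array left out. TNC with TNF called 2 with an added 32 and 1 to 2 with an array left out. TNF with TNC gave 1 to 2, and the interaction 0 to 1. The cause of these moves was not tested.

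The replicate numbers of the cells did not pair the arrays: over 19 same-numbered pairs the correlation of deviations was -0.016 to 0.057. Median centring moved the split of all genes. For TNC without TNF it was 3986 higher and 1246 lower in place of 2506 and 2435, with the median change of all genes at 0.14 in place of -0.03. For TNC with TNF it was 3030 and 1052 in place of 2534 and 1853, for TNF without TNC 2620 and 1941 in place of 2214 and 3156, for TNF with TNC 1374 and 1206 in place of 1491 and 1940, and for the interaction 791 and 1238 in place of 1524 and 1399. Over all genes CaAngII called 1 in the fit over both segments, and 9 with quantile normalization, 15 with median centring, 23 with an added 32, 58 with the 50th percentile filter, 155 with a variance trend and 0 with no filter. Infrarenally 3734 became 2459 with the mean of probe sets, 2400 with no filter and 880 to 3283 with a pool left out, suprarenally 0 became 52 to 209 under 4 settings, the difference of 1030 became 523, 0 and 1903, the interaction of 2923 became 1905, and the KO effect of 1 became 0. Values below about the 30th percentile, such as those of Stmn4 and Celsr3 infrarenally, have little signal over background.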

Other observations

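Some genes of the neuronal lists were expressed by the cultured KO smooth muscle cells themselves and answered to the factors there. The examples were chosen after their values had been seen. Of 74 list genes tested in the cells, TNF without TNC raised 5 and lowered 23, beside 14.3% and 20.3% of all genes, and TNC without TNF raised 9 and lowered 22, beside 16.1% and 15.7%. Gch1, the first enzyme in making the cofactor of Th, had a mean intensity of 901 ± 123 (SD, n = 3) without a factor, 2730.5 ± 72.7 (SD, n = 3) with TNF, 2034 ± 102 (SD, n = 4) with TNC and 2972 ± 256 (SD, n = 4) with both. Its rise with TNF was 1.61 on the log2 scale without TNC (SE 0.10, limma adjusted p = 2.17e-07), and the effect of TNF was smaller with TNC by 1.06 (interaction -1.06, SE 0.13, adjusted p = 0.000185).

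Rgs4, a brake on G-protein signalling, went from 2146 ± 107 (SD, n = 3) to 215 ± 45.8 (SD, n = 3) with TNF, 790.4 ± 116 (SD, n = 4) with TNC and 101 ± 22.7 (SD, n = 4) with both. The fall with TNF was -3.34 (SE 0.20, limma adjusted p = 2.04e-07). Tubb3, the neuronal tubulin, read 261 ± 44.7 (SD, n = 3), 843 ± 88.3 (SD, n = 3), 477 ± 26.6 (SD, n = 4) and 292 ± 17.2 (SD, n = 4) in the same order. TNF raised it without TNC (1.70, SE 0.12, adjusted p = 5.49e-07) and lowered it with TNC (-0.71, SE 0.10, adjusted p = 0.000415). The interaction was -2.41 (SE 0.15, adjusted p = 1.58e-06).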
